A study of Mus musculus with 18 samples.

Results

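The cytosolic ribosomal protein genes of the mouse spleen were taken by symbol, as Rpl or Rps followed by digits and optional letters, together with Rplp0, Rplp1, Rplp2 and Rpsa. The 10 Rps6k symbols, which name kinases, were left out. Of 19323 gene symbols in the expression table, 88 met this rule. Core subunits account for 77 of them, with 43 genes of the large subunit, 3 of the stalk of the large subunit and 31 of the small subunit. The other 11 are paralogs or carry a related name: Rpl3l, Rpl7l1, Rpl10l, Rpl22l1, Rpl32l, Rpl36al, Rpl37rt, Rpl39l, Rps27l, Rps27rt and Rps19bp1. The last of these encodes a binding partner of Rps19 and no ribosomal protein. Fau, which encodes a ribosomal protein fused to a ubiquitin-like protein, and Rack1 fall outside the rule.

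Ribosomal proteins assemble with ribosomal RNA into the small subunit, which reads the mRNA, and the large subunit, which joins the amino acids. Their mRNAs begin with a C followed by a run of pyrimidines, the terminal oligopyrimidine tract, through which the kinase complex TORC1 and the protein Larp1 control their translation as a set. In the spleen these mRNAs are abundant in lymphocytes, whereas maturing red cells fill with haemoglobin and lose their ribosomes. In people, loss of 1 copy of several of the genes causes Diamond-Blackfan anaemia, a failure of red cell production.

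Spleen RNA was sequenced in 18 libraries from ICR mice, an outbred stock, aged 10 weeks, in 6 groups of 3. All groups named HS shared a high fat diet and STZ (streptozotocin, a toxin of insulin-producing cells): HS_AOSFMT, which also had FMT (faecal microbiota transplant) labelled AOS10mg/kg-FMT, HS_conFMT, which had FMT labelled control-FMT, HS_AOS, which also had AOS at 10 mg/kg, and HS, which had diet and STZ alone. The AOS group had AOS at 10 mg/kg without diet or STZ, and the control group had neither. The labels do not spell out AOS, do not say who the FMT donors were or when each agent was given, and do not state whether libraries of a group came from separate animals, so the p-values below reflect how far these libraries spread. By its title, the study asks whether AOS FMT undoes harm of diet and STZ in this organ.

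Levels are in FPKM, fragments scaled by transcript length and library size, a unit read from the values. The summed FPKM of a library lay between 666389 and 831397, and the absolute depth is unknown. The B cell list of the spleen (7 of 7 genes present, such as Cd79a) summed to between 1452 and 2723 FPKM in every library. Some libraries stood apart in genes of other cells. The 15 acinar genes of the pancreas, the organ beside the spleen, summed to 23778 FPKM in HS_AOS 1 and 21458 FPKM in HS 1, against 23.4 to 4062 FPKM in the other 16 libraries. The 9 neutrophil genes summed to 14736 FPKM in control 1 and to 548 to 4026 FPKM elsewhere. Counts of called members are therefore also given with these 3 libraries set aside for HS_AOSFMT against HS, HS_AOS and control. The same is done for the test over all 6 groups, but not for the other comparisons.

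The ribosomal protein genes were among the most abundant transcripts of the spleen. Of the 100 genes with the highest mean FPKM, 63 were members, and 71 of the 77 core genes averaged at least 500 FPKM. Rps27, which encodes a zinc finger protein of the small subunit, had the highest mean with 6407 FPKM, and lay between 4792 and 8682 FPKM over the 18 libraries. It was followed by Rpl23a with 3621 FPKM, Rps12 with 3593 FPKM, Rps26 with 3489.9 FPKM and Rpl41, the shortest of the ribosomal proteins, with 3119 FPKM. The stalk genes, whose proteins recruit elongation factors to the ribosome, averaged 2002 FPKM (Rplp0), 2868 FPKM (Rplp1) and 2059.8 FPKM (Rplp2). Ribosomes hold their core proteins in equal number, the stalk aside, whereas the mean FPKM of the core genes ran from 4.72 to 6407. Outside the rule, Fau averaged 2216 FPKM and Rack1, a scaffold protein of the small subunit, 1123 FPKM.

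**Figure D1:**
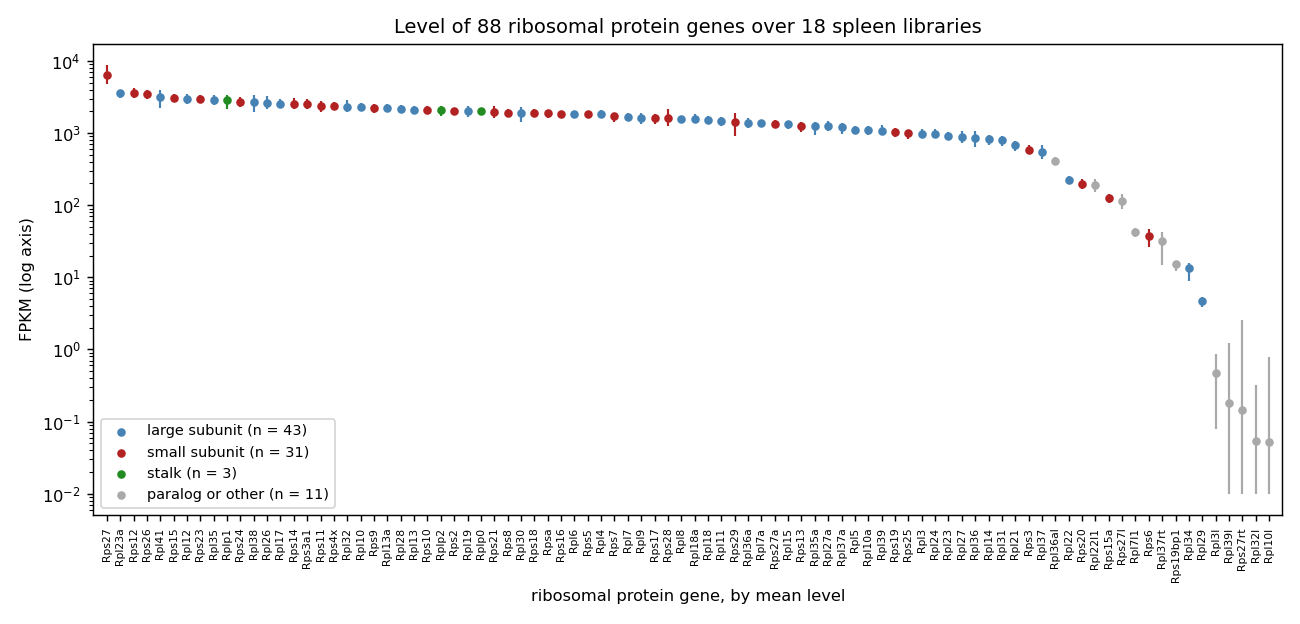
Mean FPKM (dots) and range over 18 libraries (vertical lines) of the 88 genes, on a log axis, ordered by mean level and coloured by subunit, with values under 0.01 drawn at 0.01. A plateau of core genes runs from Rps27 at 6407 FPKM to Rpl37 at 548 FPKM, and 6 core genes, Rpl22, Rps20, Rps15a, Rps6, Rpl34 and Rpl29, lie below it.

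The remaining 6 core genes averaged under 500 FPKM. Rpl22, an RNA-binding protein of the large subunit that mouse T cell development requires, averaged 227 FPKM, Rps20 199 FPKM and Rps15a 124 FPKM. Rps6, the substrate that gives S6 kinase its name, averaged 37.1 FPKM, Rpl34 13.3 FPKM and Rpl29 4.72 FPKM. Rpl34 and Rpl29 share sequence with rows that were high. Rpl34-ps1, named as a pseudogene of Rpl34, averaged 2673 FPKM and holds 11% of the 50-base words of Rpl34 mRNAs, and Gm8210 averaged 1171 FPKM and holds 22.0% of those of Rpl29. For Rps6, 15.4% of its 50-base words occur in no other GENCODE M21 transcript, against 89.0% for Rpl34 and 64.5% for Rpl29. How the counting divided reads between such copies is not given in the sources used here, so the levels of Rpl34, Rpl29, Rps6 and Rpl37rt are uncertain. The same limit touches abundant genes: 27 of the 77 core genes had under 50% unique words, among them Rpl35 (4.91%), Rpl23a (14.3%), Rpl5 (14.6%), Rpl30 (27.2%) and Rps4x (27.8%). Over all 77 core genes the share of unique words and the mean FPKM had a Spearman rho of -0.17 across genes, which share libraries and are not independent. The median share of unique words was 90.7% in the 6 core genes under 500 FPKM and 58.9% in the others.

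The paralogs lay below most core genes. Rpl36al averaged 417 FPKM and Rpl22l1, the paralog of Rpl22, 191 FPKM. Rps27l, a paralog of Rps27 and a p53 target in human cells, averaged 115 FPKM, Rpl7l1 42.4 FPKM, Rpl37rt 32.02 FPKM and Rps19bp1 15.2 FPKM. Rpl3l, known from striated muscle, stayed between 0.0800 and 0.870 FPKM. Rpl10l and Rpl39l, both known from the testis, reached at most 0.780 and 1.24 FPKM, Rpl32l at most 0.320 FPKM and Rps27rt at most 2.59 FPKM, and each of these 4 was listed at 0 in some library. These 5 low genes did not pass the filter of at least 1 FPKM in at least 3 libraries. The 83 genes that passed it reached at least 3.86 FPKM in every library.

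Replicates differed little. The standard deviation of log2(FPKM + 1) within groups had a median of 0.109 over the 83 tested members and 0.151 over all 12967 tested genes. It was lowest for Rplp0 (0.0626) and highest for Rpl37rt (0.299), Rps29 (0.256), Rps6 (0.232) and Rps27 (0.227) among the members. Most members are abundant, whereas the tested genes include many of low level, and no genes of matched level were compared.

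The summed share of the 88 genes varied by library. They made up 21.2%, 20.9% and 22.6% of summed FPKM in HS_AOSFMT, against 16.8%, 18% and 16.9% in HS. They made up 20%, 18.4% and 21.9% in AOS, against 15.2%, 17.9% and 18.5% in control. HS_AOSFMT lay wholly above HS, while AOS and control overlapped by a narrow margin. In HS_conFMT the shares were 15.5%, 21.6% and 18.8% and in HS_AOS 18.1%, 20.4% and 15.7%, so that HS_conFMT 2 and AOS 3 exceeded some HS_AOSFMT libraries. The share of the haemoglobin genes ran the other way, with 15.3%, 17.6% and 12.9% in HS_AOSFMT, against 26.8%, 29.1% and 27.5% in HS, and with 23.3%, 25.6% and 17.2% in AOS, against 34.3%, 27.1% and 21.5% in control. In whole tissue, fewer red cells and less haemoglobin RNA per cell cannot be told apart. With haemoglobin and acinar genes left out of the total, the ribosomal protein genes made up 25.0% to 26.0% of the rest in HS_AOSFMT and 23.5% to 25.6% in HS, so that these groups overlapped. On this measure AOS, with 24.8% to 26.5%, lay above control, with 23.3% to 24.5%. The group means were 25.4% in HS_AOSFMT and 25.8% in AOS.

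**Figure D2:**
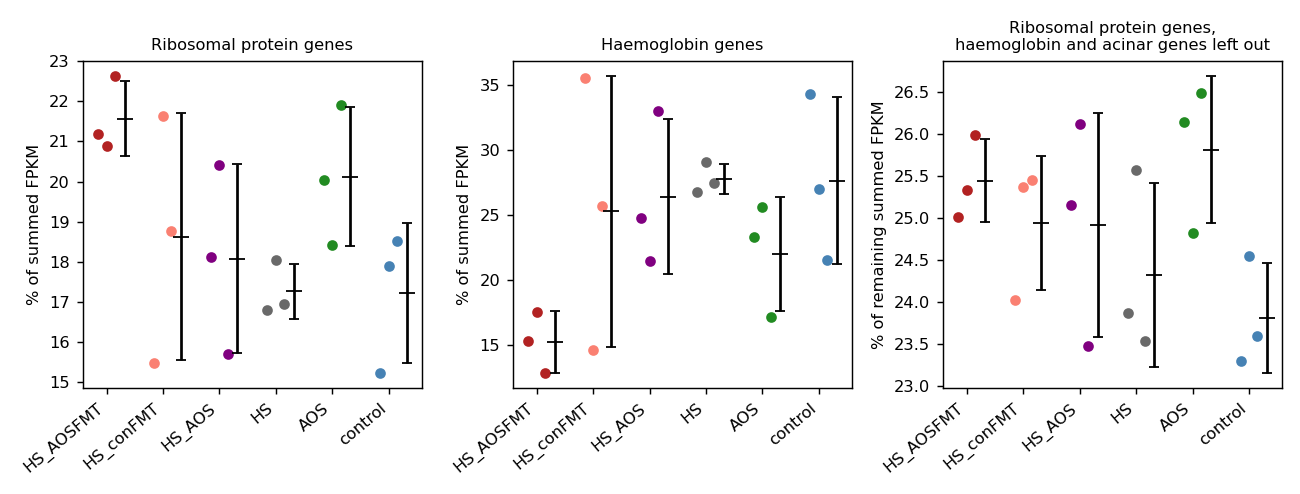
Share of summed FPKM held by the 88 ribosomal protein genes (left) and by haemoglobin genes (middle), and share of ribosomal protein genes once haemoglobin and acinar genes are left out (right), in % for each library (dots) with group mean and SD (bars, n = 3). HS_AOSFMT is high on the left (20.9% to 22.6%) and low in the middle (12.9% to 17.6%), and on the right it overlaps HS.

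The AOS FMT was compared with diet and STZ alone to ask what the transplant changed. Of the 83 tested members 8 rose in HS_AOSFMT relative to HS and 0 fell (limma on log2(FPKM + 1), Benjamini-Hochberg adjusted p under 0.05 over all 12967 genes tested), which is 9.64% of the members. Over all genes 9.23% were called, 8.08% as higher and 1.15% as lower, so the share of members called was near this background. The shift itself was broad and small: 78 of 83 had a positive change, with a median log2 change of 0.16, against 67.4% positive and a median of 0.10 over all genes. In 49 of 83 members, 59.0%, the 3 HS_AOSFMT libraries lay above the 3 HS libraries, against 30.8% of all genes, and in 0 members they lay below, against 7.64% of all genes. At an unadjusted p under 0.05 there were 30 members, 36.1%, against 28.0% of all genes.

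The 8 genes called come from both subunits. Rpl26, which sits at the peptide exit tunnel of the large subunit, had 3078, 3248 and 2990.3 FPKM in HS_AOSFMT libraries, against 2182, 2650.0 and 2273 FPKM in HS libraries. All HS_AOSFMT libraries exceeded all HS libraries, and the log2 change was 0.40 (SE 0.084, adjusted p = 0.0142). Rpl30, also of the large subunit, had 2118, 2231 and 2302 FPKM in HS_AOSFMT, against 1422, 1814 and 1572 FPKM in HS, again without overlap. Its log2 change was 0.47 (SE 0.11, adjusted p = 0.0201). Rps24, a small subunit protein mutated in some patients with Diamond-Blackfan anaemia, had 3122, 3166 and 3201 FPKM in HS_AOSFMT, against 2363, 2697 and 2347 FPKM in HS, and its log2 change was 0.36 (SE 0.10, adjusted p = 0.0319). The groups did not overlap here either.

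Rps4x, the X-linked form of a small subunit protein, averaged 2638 ± 73.1 FPKM in HS_AOSFMT and 2171 ± 105 FPKM in HS (SD, n = 3 each), a log2 change of 0.28 (SE 0.078, adjusted p = 0.0367). Rpl21, a large subunit gene, averaged 759.9 ± 13.6 FPKM in HS_AOSFMT and 613 ± 64.6 FPKM in HS, a log2 change of 0.31 (SE 0.088, adjusted p = 0.0378). In Rpl9, of the large subunit, the HS_AOSFMT libraries were closest to each other, at 1923, 1908 and 1903 FPKM, against 1484, 1657 and 1512 FPKM in HS, with a log2 change of 0.30 (SE 0.086, adjusted p = 0.0401). These 3 genes did not overlap between the groups. Rpl12, whose protein lies at the base of the stalk, averaged 3389.7 ± 45.7 FPKM in HS_AOSFMT and 2740.0 ± 236 FPKM in HS, a log2 change of 0.31 (SE 0.089, adjusted p = 0.0424). Rpsa, a small subunit protein also known as the laminin receptor, averaged 2042 ± 32.3 FPKM in HS_AOSFMT and 1726 ± 96.9 FPKM in HS, a log2 change of 0.24 (SE 0.072, adjusted p = 0.0459). Both were without overlap as well.

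The gene with the largest positive difference did not pass the threshold. Rps27 had 8248, 7773 and 8682 FPKM in HS_AOSFMT, against 4792, 6998 and 5316 FPKM in HS, a log2 difference of 0.55 (SE 0.17, adjusted p = 0.0552). The groups did not overlap, and HS 2 was above the other HS libraries. The 5 members with negative values were not called: Rpl37rt at -0.63, Rps29 at -0.37, Rpl37 at -0.18, Rpl41 at -0.080 and Rpl28 at -0.013 on the log2 scale. Of these, Rpl37rt (adjusted p = 0.0876), Rps29 (0.219) and Rpl37 (0.385) had the smallest p.

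Start sites were looked up because the members moved together and because the tract that marks their mRNAs lies there. RefSeq promoters of build GRCm38.p6 were found for 68 of the 88 members. The 50 bases around the annotated start, 30 before it and 20 from it on, are shown for the genes called with the AOS FMT that had an entry, for Rps27 with the largest difference and for Rpl11, which had the smallest p in AOS relative to control. Capitals mark a C followed by at least 5 further pyrimidines within 10 bases of the start. Where a gene had more entries than the one printed, the entry with the most such tracts was taken.
Rpl26 (chr11:68901536-68901585, plus strand): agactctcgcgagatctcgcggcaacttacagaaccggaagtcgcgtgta
Rps24 (chr14:24490648-24490697, plus strand): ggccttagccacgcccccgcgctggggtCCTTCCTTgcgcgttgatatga
Rps4x (chrX:102189372-102189421, minus strand): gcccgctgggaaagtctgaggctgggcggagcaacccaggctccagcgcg
Rpl9 (chr5:65391412-65391461, minus strand): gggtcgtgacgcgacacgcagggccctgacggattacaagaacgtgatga
Rpl12 (chr2:32961682-32961731, plus strand): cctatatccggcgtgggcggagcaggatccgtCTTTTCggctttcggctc
Rpsa (chr9:120127736-120127785, plus strand): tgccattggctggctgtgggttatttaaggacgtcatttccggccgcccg
Rps27 (chr3:90213629-90213678, minus strand): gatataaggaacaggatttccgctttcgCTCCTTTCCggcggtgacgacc
Rpl11 (chr4:136053374-136053423, minus strand): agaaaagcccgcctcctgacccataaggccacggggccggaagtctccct

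Rps24, Rpl12 and Rps27 hold a tract in this window by that definition, and the other 5 do not. Such a tract stood in 36 of 68 members, 52.9%, and in 21.9% of 27025 genes in the same table. Here and below a gene counted where any of its entries matched, so genes with more annotated starts had more opportunities to match. In the 300 bases from 250 before to 50 after the start, and on either strand, the motif CCGGAAG, a core of ETS factor sites, stood in 26 of 68 members (38.2%) and 9.93% of all genes. AAGATGGC, a core of Yy1 sites, stood in 6 members (8.82%) and 3.19% of all genes. The letters TATAAA stood in 8 members (11.8%) and 15.7% of all genes. A match of these letters is a description, and the annotated starts shown, those of Rpl26, Rpl9 and Rpl11 among them, need not be the ones used in the spleen. Members with a protein-coding GENCODE M21 entry, 86 of 88, lie on 19 chromosomes.

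Other members named for their role were not called in this comparison. Rplp0 averaged 2005 ± 40.1 FPKM in HS_AOSFMT and 1968 ± 75.3 FPKM in HS, a log2 difference of 0.027 (adjusted p = 0.811). The other stalk genes differed by 0.22 (adjusted p = 0.178) in Rplp1 and 0.15 (adjusted p = 0.215) in Rplp2 on the log2 scale. Rpl5 and Rpl11, which bind 5S ribosomal RNA and, outside the ribosome, the p53 inhibitor Mdm2, differed by 0.20 (adjusted p = 0.142) and 0.15 (adjusted p = 0.232). Rps27a, made as a fusion with ubiquitin, differed by 0.25 (adjusted p = 0.0650), and Rps6 by 0.24 (adjusted p = 0.375). Rpl3, a protein near the centre that joins amino acids, differed by 0.062 (adjusted p = 0.597).

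The count of 8 rested on single libraries. Without HS 1, HS 3 or HS_AOSFMT 1 in turn it was 0, without HS_AOSFMT 2 or HS_AOSFMT 3 it was 1, and without HS 2 it was 9. With HS 1, HS_AOS 1 and control 1 set aside it was 0. The shares of all genes called in these fits are not given, here or in the comparisons below. Such counts therefore do not set the members apart from other genes. The median change of the members stayed between 0.13 and 0.21 in those 6 fits that left out 1 library. The scaling of the libraries moved it more. Scaling by median ratios gave 2 genes called and a median of 0.051, quantile normalization gave 3 and 0.068, and rescaling without haemoglobin and acinar genes gave 2 and 0.039. That rescaling also moved the median of all genes by -0.11 on the log2 scale. The 3 scalings called 793, 794 and 383 of all genes in that order, against 1197 as deposited. Relative to the median of all genes the members' median was 0.060 higher as deposited, with 62 of 83 members above it, and 0.042 higher with 53 of 83 above it under quantile normalization. Median-ratio scaling and rescaling apply 1 factor to a library, which moves all genes about alike, and left 62 of 83 above it. Rpl30 was called under each of the 8 other settings that kept all libraries of both groups, and Rpl26 under 7 of them.

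**Figure D3:**
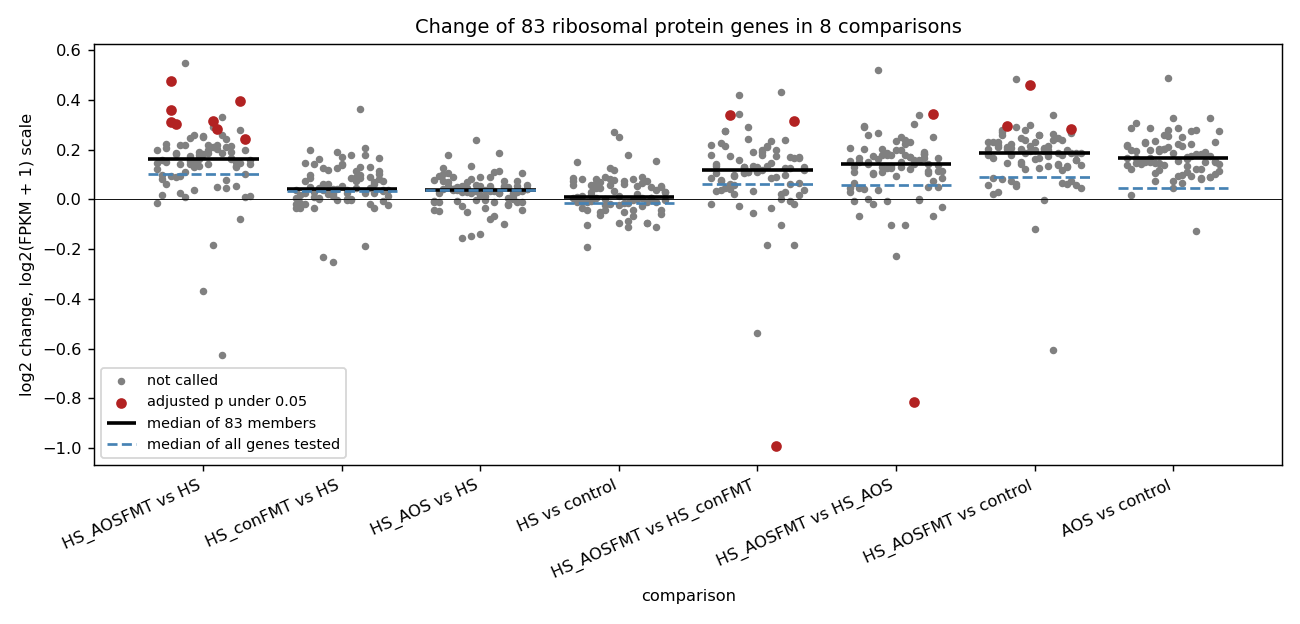
Log2 change on the log2(FPKM + 1) scale of the 83 tested members in 8 comparisons, with genes at an adjusted p under 0.05 in red, the median of the members as a black line and the median of all tested genes as a dashed line. The members' median is 0.19 for HS_AOSFMT vs control and 0.16 for AOS vs control (0.076 and 0.11 with median-ratio scaling, 0.044 and 0.079 with quantile normalization, 0.081 and 0.10 after rescaling). For HS vs control it is 0.0094, and -0.018 under quantile normalization.

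Marker genes of other cells, in and beside the spleen, moved in the same comparison. All 9 erythroid genes had a negative change in HS_AOSFMT relative to HS, with a median of -1.0, and Alas2, whose enzyme starts haem production in red cells, fell, with a log2 change of -1.16 (adjusted p = 0.0451). Their summed level was 57143 to 98635 FPKM in HS_AOSFMT and 155638 to 179964 FPKM in HS. All 8 T cell genes had a positive change and 4 rose, among them Il7r, the interleukin 7 receptor, by 1.22 (adjusted p = 0.00286), with sums of 429 to 515 FPKM in HS_AOSFMT and 284 to 352 FPKM in HS. Of the 15 acinar genes 13 fell, with sums of 23.4 to 69.9 FPKM in HS_AOSFMT and 2460 to 21458 FPKM in HS. None of these markers was at 0 in any library. Their part in the ribosomal protein result was not tested beyond the rescaling given above.

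Against the other groups, HS_AOSFMT was set beside the control FMT, direct AOS and control spleens. These comparisons share the same 3 HS_AOSFMT libraries. Relative to HS_conFMT, 3 of 83 members were called (2 higher, 1 lower), 3.61%, against 5.85% of all genes (4.81% higher, 1.04% lower), with a median log2 change of 0.12, against 0.062 over all genes. Rpl9 rose by 0.34 (SE 0.086, adjusted p = 0.0331), with 1923, 1908 and 1903 FPKM in HS_AOSFMT and 1317, 1645 and 1593 FPKM in HS_conFMT. Rpl26 rose by 0.32 (SE 0.084, adjusted p = 0.0402), with 2315, 2813 and 2382 FPKM in HS_conFMT beside the HS_AOSFMT values above. Neither gene overlapped between the groups. Rpl37rt, a copy of Rpl37 that shares 31.3% of the 50-base words of Rpl37 mRNAs, had 25.2, 14.9 and 18.9 FPKM in HS_AOSFMT, against 38.0, 38.7 and 41.1 FPKM in HS_conFMT. Its log2 change was -0.99 (SE 0.22, adjusted p = 0.0209). Rpl37 itself differed by -0.18 (adjusted p = 0.443), and Rps29, another small subunit gene of Diamond-Blackfan anaemia, by -0.54 (adjusted p = 0.107).

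The HS_conFMT comparison also turned on single libraries. Without HS_conFMT 2, 8 members were called, and without HS_conFMT 1 or HS_conFMT 3 there were 0. The count was 0 without HS_AOSFMT 2 or HS_AOSFMT 3 and 1 without HS_AOSFMT 1. HS_conFMT 2 had the lowest haemoglobin share of its group (14.7%, against 35.5% and 25.7% in the other HS_conFMT libraries). The part of that share in the counts was not tested. Under median-ratio scaling the split was 1 higher and 1 lower, and under quantile normalization 0 higher and 2 lower, with members' medians of 0.052 and 0.0073 under these scalings. Over all genes the same scalings called 526 higher and 285 lower, and 454 higher and 250 lower. Rescaling gave a median of 0.026, and leaving out 1 library 0.058 to 0.16. In 28 of 83 members, 33.7%, the HS_AOSFMT libraries lay above all HS_conFMT libraries, against 21.5% of all genes, and in 1 (Rpl37rt) they lay below, against 7.27%. At an unadjusted p under 0.05 there were 19 members, 22.9%, against 22.8% of all genes.

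Relative to HS_AOS, 2 of 83 members, 2.41%, were called (1 higher, 1 lower), against 8.57% of all genes (6.42% higher, 2.14% lower), and the members' median log2 change was 0.14, against 0.058 over all genes. It was 0.072 with median-ratio scaling, 0.054 with quantile normalization and 0.026 after rescaling (which called 1 higher and 2 lower), and 0.075 to 0.21 with 1 library left out. Rescaling called 346 higher and 512 lower over all genes. Rpl26 rose by 0.34 (SE 0.084, adjusted p = 0.0228), with 2387, 2579 and 2385 FPKM in HS_AOS. Rpl37rt fell, with a log2 change of -0.81 (SE 0.22, adjusted p = 0.0367) and 43.2, 32.4 and 29.6 FPKM in HS_AOS, and neither gene overlapped between the groups. The next smallest p belonged to Rps27, at 5124, 7299.8 and 5050.2 FPKM in HS_AOS, and Rps24, at 2539.7, 2956 and 2305 FPKM in HS_AOS. On the lower side they belonged to Rps29, at 1160.4 ± 284 FPKM in HS_AOSFMT and 1343 ± 185 FPKM in HS_AOS, and Rpl3, at 966 ± 17.7 FPKM in HS_AOSFMT and 1013 ± 75.0 FPKM in HS_AOS. These 4 genes were not called. In 27 members HS_AOSFMT lay above all HS_AOS libraries, against 24.4% of all genes, and in 1 below, against 10.4%; 21 members had an unadjusted p under 0.05, 25.3%, against 26.3% of all genes. Without HS_AOS 2 the count was 7, all higher. It was 0 without HS_AOS 1, HS_AOS 3, HS_AOSFMT 2 or HS_AOSFMT 3 and 1 without HS_AOSFMT 1.

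Relative to control, 3 of 83 members, 3.61%, were called, all higher, against 12.0% of all genes (9.68% higher, 2.34% lower), and the members' median log2 change was 0.19, against 0.090 over all genes. That median was 0.076 with median-ratio scaling, 0.044 with quantile normalization and 0.081 after rescaling without haemoglobin and acinar genes. Rpl9 rose by 0.30 (SE 0.086, adjusted p = 0.0370), Rpl26 by 0.28 (SE 0.084, adjusted p = 0.0403) and Rpl36, of the large subunit, by 0.46 (SE 0.14, adjusted p = 0.0446). Rpl36 had 887, 899 and 1033 FPKM in HS_AOSFMT, against 709.7, 634 and 705 FPKM in control, with no overlap. Control values of Rpl9 were 1549.8, 1582 and 1537 FPKM and those of Rpl26 2515, 2662 and 2474 FPKM. In 56 of 83 members, 67.5%, HS_AOSFMT lay above all control libraries, against 23.3% of all genes, and in 0 below, against 8.30%. At an unadjusted p under 0.05 there were 39 members, 47.0%, against 31.9% of all genes. Rpl37rt, with 22.1, 36.1 and 33.2 FPKM in control, had the smallest p on the lower side, followed by Rps29 and Rpl37, and none of these was called. Without control 3 there were 6 members, and 0 without control 1, control 2 or any HS_AOSFMT library, and median-ratio scaling gave 0 higher and 1 lower. Over all genes that scaling gave 804 higher and 548 lower.

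In 12 of 83 members, 14.5%, the 3 HS_AOSFMT libraries lay above all 15 other libraries, against 8.04% of all genes. They were Rpl7, Rpl9, Rpl12, Rpl21, Rpl26 and Rpl30 of the large subunit and Rps3a1, Rps4x, Rps12, Rps19, Rps24 and Rps27 of the small subunit. In none of the other 5 groups did the 3 libraries of a group lie above all others for any member. Of all genes, 0.733% did so in AOS, 0.139% in HS_AOS, 0.131% in control, 0.116% in HS_conFMT and 0.0154% in HS. The 0 members are thus near this background. In none of the 6 groups did the libraries lie below all others for any member, and the share of all genes was not counted there. The mean of the group was highest in HS_AOSFMT for 45 members and in AOS for 33, and lowest in control for 44 and in HS for 23.

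**Figure D4:**
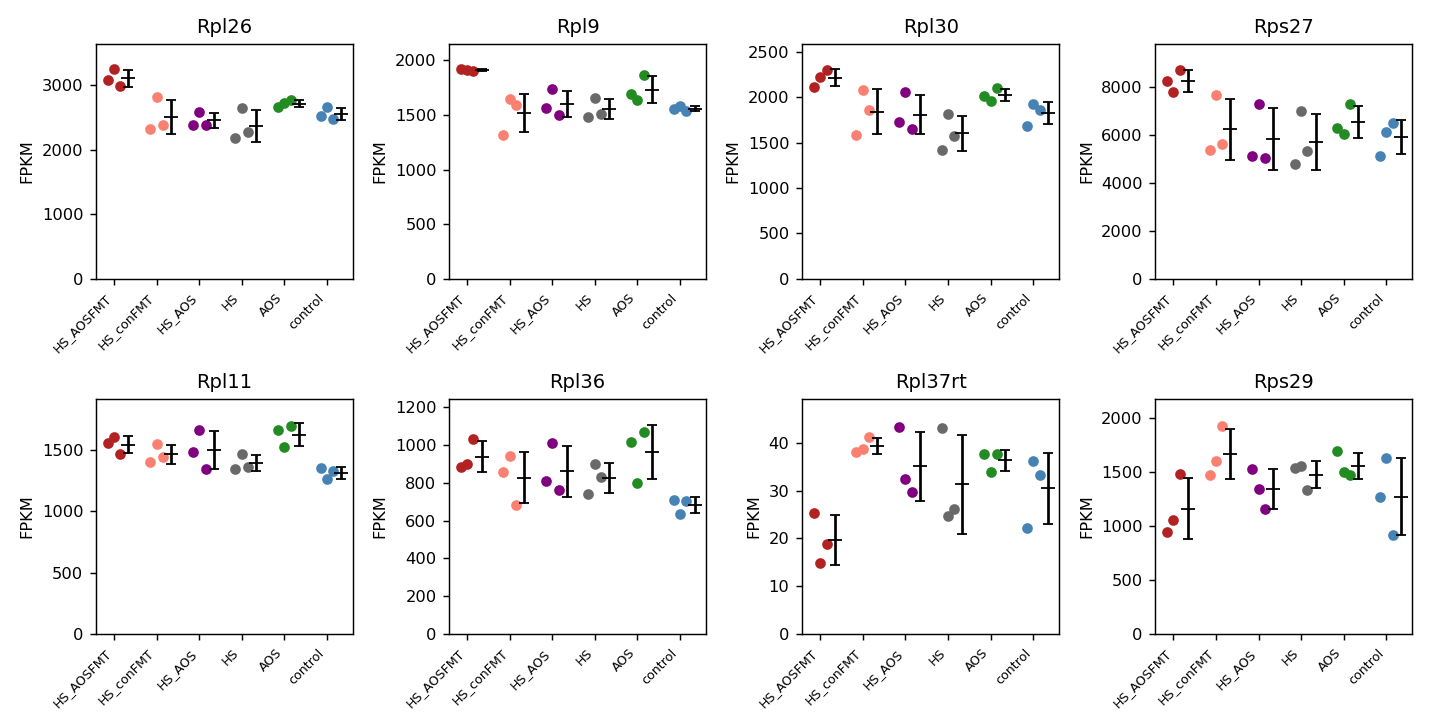
FPKM of Rpl26, Rpl9, Rpl30, Rps27, Rpl11, Rpl36, Rpl37rt and Rps29 in each library (dots) by group, with mean and SD (bars, n = 3); all axes start at 0. In Rpl26, Rpl9, Rpl30 and Rps27 the HS_AOSFMT dots lie above the dots of all 5 other groups, and in Rpl11 and Rpl36 the AOS dots lie above the control dots.

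AOS without diet or STZ was compared with control to ask what AOS did to a spleen with no other treatment. No member was called by limma, against 0.00771% of all genes, which is 1 gene. At an unadjusted p under 0.05 there were 24 of 83 members, 28.9%, against 11.3% of all genes. Of the differences 82 of 83 were positive, with a median log2 difference of 0.16, against 62.6% positive and a median of 0.046 over all genes. In 44 of 83 members, 53.0%, all AOS libraries lay above all control libraries, against 11.6% of all genes, and in 0 they lay below, against 4.79%. The median was 0.11 under median-ratio scaling, 0.079 under quantile normalization and 0.10 after rescaling without haemoglobin and acinar genes. Leaving out 1 AOS or control library at a time gave medians from 0.14 to 0.21, and 0 members called each time.

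Rpl11 had the smallest p of this comparison. It had 1660.0, 1518 and 1689 FPKM in AOS libraries, against 1353, 1258 and 1323 FPKM in control libraries, a log2 difference of 0.31 (SE 0.079, adjusted p = 0.204). Rpl36 had 1018, 801 and 1072 FPKM in AOS, against 709.7, 634 and 705 FPKM in control, a log2 difference of 0.49 (SE 0.14, adjusted p = 0.243). Neither gene overlapped between the groups. Rpl27a, of the large subunit, had 1364, 1319 and 1486 FPKM in AOS, against 1135, 1199 and 1111 FPKM in control, a log2 difference of 0.27 (SE 0.082, adjusted p = 0.256), also without overlap. Rpl13 averaged 2285 ± 146 FPKM in AOS and 1944 ± 19.5 FPKM in control, and Rpl19 averaged 2249 ± 189.5 FPKM in AOS and 1842 ± 153 FPKM in control. The single negative value was that of Rps6, with 26.9, 34.8 and 42.0 FPKM in AOS, against 40.9, 35.5 and 35.7 FPKM in control, and a log2 difference of -0.13 (adjusted p = 0.795). Rpl26 and Rpl9, called with the AOS FMT, had 0.089 and 0.15 here.

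All 9 erythroid genes had a negative value in AOS relative to control, with a median of -0.63, and sums of 82461 to 116849 FPKM in AOS and 117617 to 177326 FPKM in control. All 8 T cell genes had a positive one, with a median of 0.37 and sums of 333 to 371 FPKM in AOS and 205 to 314 FPKM in control. All 9 neutrophil genes had a negative one, with sums of 548 to 1396 FPKM in AOS and 783 to 14736 FPKM in control. All 6 plasma cell genes were positive, with a median of 0.93 and sums of 1275 to 1595 FPKM in AOS and 592 to 1121 FPKM in control. So were all 7 B cell genes (median 0.15), 6 macrophage genes (0.27) and 6 adipocyte genes (0.87). Of 8 cell division genes 1 was positive (median -0.14), and of 15 acinar genes 7 were. None of these genes was called or at 0 in any library. Their part in the ribosomal protein values was not tested, and the medians after rescaling are given above.

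Under diet and STZ the same dose of AOS left the members near the median of all genes. In HS_AOS relative to HS, 0 members were called by limma, against 0.00% of all genes, and 0 had an unadjusted p under 0.05, against 5.20%. Of 83 members 60 were positive with a median log2 difference of 0.036, against 63.2% positive and 0.039 over all genes. The members' median was -0.0056 under median-ratio scaling. Rpl3 had the smallest p, with 1013 ± 75.0 FPKM in HS_AOS and 926 ± 13.2 FPKM in HS, and Rps27l had the smallest among the negative ones, with 108 ± 2.80 FPKM in HS_AOS and 119.7 ± 4.79 FPKM in HS. Next came Rps10 (0.13) and Rpl30 (0.18) among the positive differences and Rpl34 (-0.16) and Rps29 (-0.14) among the negative ones, on the log2 scale. Rps27l was the only member whose groups did not overlap, lying lower as 2.74% of all genes did, and 0 members lay higher, against 8.21%. The difference between the AOS effects was tested as an interaction, the HS_AOS minus HS difference minus the AOS minus control difference. It was negative for 80 of 83 members, with a median of -0.12, against 0.0021 over all genes. No member was called by limma, against 0.00771% of all genes, and 2 members, against 5.96% of all genes, had an unadjusted p under 0.05: Rplp2 with -0.25 (adjusted p = 0.807) and Rpl36 with -0.43 (adjusted p = 0.835). The median was -0.11 with median-ratio scaling, -0.067 after rescaling and -0.055 with quantile normalization, under which 57 of 83 were negative. With 1 library left out it ran from -0.19 to -0.054.

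**Figure D5:**
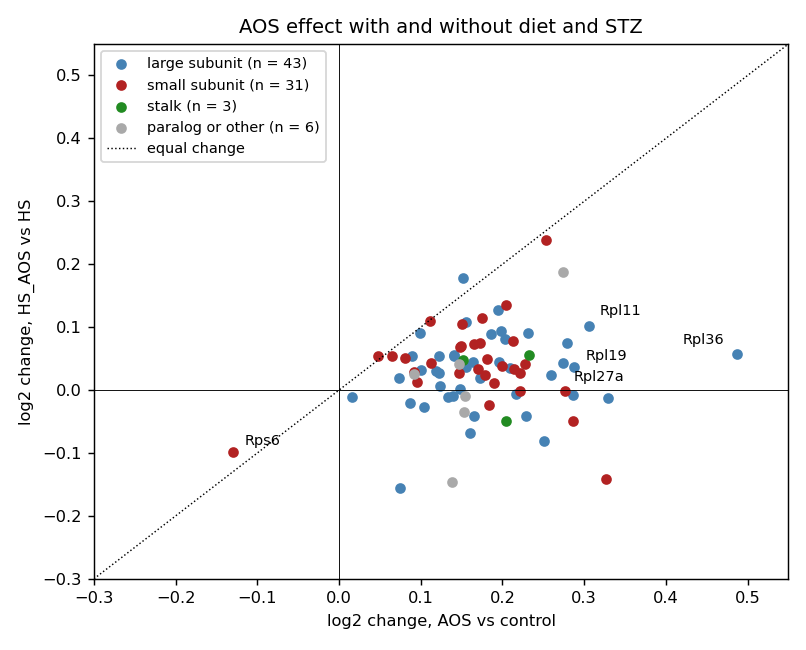
Log2 change of the 83 tested members with AOS under diet and STZ (HS_AOS vs HS, vertical) and without them (AOS vs control, horizontal), coloured by subunit, with a dotted line of equal change. Nearly all points lie right of 0, with 82 positive on the horizontal axis and 60 on the vertical axis, and most lie below the dotted line.

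With diet and STZ alone the members' median lay near 0. The 3 HS libraries also enter the comparisons of each other HS group with HS. In HS relative to control, 0 members were called by limma, against 0.0154% of all genes, and 0 had an unadjusted p under 0.05, against 6.40%. The members' median log2 difference was 0.0094, with 50 of 83 positive, against -0.015 and 45.5% positive over all genes. It was -0.018 under quantile normalization. As deposited, 60 of 83 members lay above the median of all genes, and 35 of 83 under quantile normalization. Rpl36 had the smallest p, with 741, 900.5 and 833 FPKM in HS, against 709.7, 634 and 705 FPKM in control, a log2 difference of 0.27 (adjusted p = 0.810). It was the only member whose groups did not overlap, lying higher as 3.89% of all genes did, and 0 members lay lower, against 4.65%. Next came Rpl37 (0.18) and Rps29 (0.25) among the positive log2 differences. Rpl30 had the smallest p among the negative ones, with 1603 ± 198 FPKM in HS and 1827 ± 124 FPKM in control and a log2 difference of -0.19 (adjusted p = 0.830), followed by Rpl26 (-0.11) and Rpl21 (-0.11).

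With the control FMT, too, few members stood apart. In HS_conFMT relative to HS, 0 members were called by limma, against 0.00771% of all genes, and 1 had an unadjusted p under 0.05, against 6.32%. This was Rpl23, of the large subunit, with 977 ± 49.6 FPKM in HS_conFMT and 846 ± 46.4 FPKM in HS, a log2 difference of 0.21 (adjusted p = 0.757). The members' median was 0.043 with 66 of 83 positive, against 0.032 and 59.3% positive over all genes. It was -0.00082 under median-ratio scaling and 0.071 under quantile normalization. Rps27l, at 95.9, 92.8 and 114 FPKM in HS_conFMT, against 119.8, 115 and 124 FPKM in HS, had the smallest p among the negative ones, with a log2 difference of -0.25 (adjusted p = 0.774). Next came Rpl21 (0.18) and Rpl13a (0.16) among the positive ones and Rpl34 (-0.23) and Rps6 (-0.19) among the negative ones. Rpl23 and Rps12 lay higher in all HS_conFMT libraries, as 7.78% of all genes did, and Rps27l lower, as 2.99% did. Over all 6 groups at once the moderated F test of limma called 0 members, against 5.08% of all genes, and 15 had an unadjusted p under 0.05, 18.1%, against 25.2% of all genes. Rpl26 had the smallest adjusted p of that test, 0.0605, followed by Rpl37rt with 0.0823.

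The members were also read by subunit. In HS_AOSFMT relative to HS, 40 of 43 large subunit genes were positive with a median log2 change of 0.16, 30 of 31 small subunit genes with a median of 0.19, and 3 of 3 stalk genes with a median of 0.15. Of these, 5 large and 3 small subunit genes were the ones called. In AOS relative to control the medians were 0.16 for the large subunit, 0.18 for the small subunit and 0.20 for the stalk. The ratio of summed large to summed small subunit FPKM was 1.16, 1.18 and 1.16 in HS_AOSFMT, against 1.22, 1.2 and 1.24 in HS, with no overlap. Rps27 made up 11.5% to 12.5% of the small subunit sum in HS_AOSFMT and 8.44% to 11.1% in HS. Without Rps27 the ratio was 1.33 in each HS_AOSFMT library and 1.33 to 1.37 in HS, and the groups overlapped.

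The paralogs that passed the filter are given beside their partners, and none of them was called here. In HS_AOSFMT relative to HS, Rpl22l1 differed by 0.33 (adjusted p = 0.110) and Rpl22 by 0.22 (adjusted p = 0.0962) on the log2 scale. The FPKM ratio of Rpl22l1 to Rpl22 was 0.860 to 0.940 in HS_AOSFMT and 0.749 to 0.894 in HS, an overlap. Rps27l differed by 0.039 (adjusted p = 0.869), beside 0.55 in Rps27. Rpl7l1 differed by 0.21 (adjusted p = 0.0914) and Rpl7 by 0.20 (adjusted p = 0.12), and Rpl36al by 0.22 (adjusted p = 0.122) and Rpl36a by 0.25 (adjusted p = 0.0788). The partners of paralogs under the filter were not called, with log2 differences of 0.062 in Rpl3, 0.15 in Rpl10, 0.095 in Rpl32, 0.16 in Rpl39 and 0.55 in Rps27. Rpl34-ps1, the abundant row named for Rpl34, rose by 0.38 (SE 0.11, adjusted p = 0.0387), with 3224 ± 83.2 FPKM in HS_AOSFMT and 2479 ± 245 FPKM in HS, and was chosen after its values were seen.

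Genes that build ribosomes or act with them on mRNA were counted in HS_AOSFMT relative to HS, a comparison in which 9.23% of all genes were called. Of 35 ribosome assembly factors, 2 rose and 0 fell, with a median of 0.088: the kinase Riok1, with 21.8 ± 1.16 FPKM in HS_AOSFMT and 16.2 ± 1.40 FPKM in HS and a log2 change of 0.41 (adjusted p = 0.00914), and the export adaptor Nmd3 with 0.32 (adjusted p = 0.0368). Of 15 elongation and other mRNAs with such tracts, 1 rose, Tpt1 with 0.36 (adjusted p = 0.0181), and 1 fell, the poly(A)-binding protein gene Pabpc1 with -0.41 (adjusted p = 0.0115). Of 27 initiation factors 1 rose, Eif3e with 0.34 (adjusted p = 0.0281). Of 20 genes of the TORC1 pathway 2 rose, Rheb, the GTPase that activates TORC1, with 0.35 (adjusted p = 0.00427) and Pdcd4, an inhibitor of translation initiation, with 0.57 (adjusted p = 0.0238). Of 12 genes of RNA polymerase I, which makes ribosomal RNA, 2 rose, Ubtf with 0.28 (adjusted p = 0.0272) and Taf1b with 0.34 (adjusted p = 0.0443). Of 78 mitochondrial ribosomal proteins 5 rose, led by Mrps31 with 0.46 (adjusted p = 0.00908), Mrpl33 with 0.46 (adjusted p = 0.0185) and Mrps30 with 0.32 (adjusted p = 0.0201), with a median of 0.094.

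In AOS relative to control no gene of these 6 lists was called by limma. All 35 assembly factors were positive, with a median log2 difference of 0.13, as were 68 of 78 mitochondrial ribosomal proteins with a median of 0.11, 24 of 27 initiation factors with a median of 0.098, 11 of 12 RNA polymerase I genes with a median of 0.17 and 13 of 15 elongation and other mRNAs with a median of 0.13. The smallest p among the assembly factors was that of Ncl, nucleolin, with 114 ± 5.22 FPKM in AOS and 93.1 ± 6.09 FPKM in control, followed by Eif6, with 50.3 ± 1.30 FPKM in AOS and 44.0 ± 2.78 FPKM in control. Ubtf had 59.2 ± 4.98 FPKM in AOS and 48.1 ± 1.20 FPKM in control. In the TORC1 list 14 of 20 were positive, with Rptor at 7.76 ± 0.256 FPKM in AOS and 6.56 ± 0.392 FPKM in control. Over all genes 62.6% were positive in this comparison.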

How the data were processed

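RNA was measured in 18 spleen libraries. Per the labels, Trizol and a column kit were used on frozen spleens, and libraries followed the Illumina protocol. The submitters' processing notes name Bowtie 0.12.2 and mm10; no counter, annotation, strand setting or filter is named ("not given in the sources used here"). Normalized values came as 1 table deposited by the authors, which names no unit and was read as FPKM from its values; 2 decimals and no counts are given, so depth is unknown. Of 19326 entries, 3 symbols stood on 2 lines each, and the line with the higher mean was kept.

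The 12967 genes that reached 1 FPKM in 3 or more libraries were fitted with limma 3.58.1 (R 4.3.3) on log2(FPKM + 1), a scale that understates changes of low genes, with group as the factor over all 18 libraries and eBayes with trend and robust (12 residual and a median of 3.38 prior degrees of freedom). All tests are two-sided, adjusted by Benjamini-Hochberg over all tested genes, with a threshold of 0.05. The fit was checked on simulated data. Libraries do not overlap where every value of 1 group exceeds every value of the other. Some items are not reported here. Members and lists were chosen with earlier results of these data known. Named members were, per comparison, up to 6 called per direction with the largest change and no overlap, otherwise the 3 with the smallest p, and members with a set role. Alternatives were pseudocount 0.1, no filter, 3 other scalings, the groups compared alone, a replicate block, plain eBayes, each library left out, and 3 libraries set aside (added after seeing the data). Mean ± values are SD over 3 libraries. Words of 50 bases were compared over GENCODE M21 transcripts, and promoters come from RefSeq (GRCm38.p6).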

Additional observations from a re-analysis of the deposited data

How the results depend on the processing

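Numbers of ribosomal protein genes called depended on the processing, whereas no called gene changed direction. For HS_AOSFMT vs HS (8 called) the count was 5 without the filter, 2 with median-ratio scaling, 3 with quantile normalization, 2 after rescaling without haemoglobin and acinar genes and 0 when 3 libraries (HS 1, HS_AOS 1, control 1) were left aside. For HS_AOSFMT vs control (3, all higher) the same settings gave 1, 1, 0, 0 and 1, and the groups compared alone gave 0. The 1 under median-ratio scaling was lower, so it was none of those 3 genes. With the 3 libraries set aside, limma did not call Rpl9, Rpl26 or Rpl36 (adjusted p = 0.143, 0.147 and 0.115). The 1 called there was another member. Over all genes, median-ratio scaling, quantile normalization and rescaling called 793, 794 and 383 for HS_AOSFMT vs HS (1197 as deposited). They called 1352, 1332 and 1027 for HS_AOSFMT vs control (1558 as deposited). For HS_AOSFMT vs HS_AOS (2) the count was 1 without the filter, with the groups compared alone and with the 3 libraries set aside. For HS_AOSFMT vs HS_conFMT (3) the groups compared alone gave 1. The F test (0) gave 1 with median-ratio scaling, 2 with quantile normalization and 1 with the 3 libraries set aside. Leaving out 1 library gave 0 to 9 for HS_AOSFMT vs HS, 0 to 7 vs HS_AOS, 0 to 8 vs HS_conFMT, 0 to 6 vs control and 0 to 1 for the F test, and 0 in every other comparison, HS vs control, HS_AOS vs HS, HS_conFMT vs HS, AOS vs control and the interaction. The cause was not tested. Counts from fits without the filter, with the groups compared alone or with libraries left out stand without the share of all genes called. So do those of the F test under other scalings. None of these counts is a result about the members alone. Pseudocount 0.1 moved none of these counts by over 1.5 times.

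Samples of different groups share replicate numbers, and whether these pair them is not settled by the values. Deviations of same-numbered libraries correlated between -0.37 and 0.49 (median 0.018, 45 pairs). Between libraries of other numbers they correlated between -0.57 and 0.44 (median -0.026, 90 pairs). Of 18 libraries, 8 correlated best with a library of their own number. With the replicate number as a block, 7 members were called for HS_AOSFMT vs control, 5 vs HS_AOS, 2 by the F test, 9 vs HS and 3 vs HS_conFMT. The shares of all genes called with this block are not given.

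The smallest log2 change of a called member was 0.24 (Rpsa in HS_AOSFMT vs HS), and the files hold no counts from which depth could be read.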

Other observations

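The kinases with Rps6k symbols, which the rule leaves out, averaged from 0.197 (Rps6ka6) to 30.9 FPKM (Rps6ka1), below most core genes. The level of Rps6 itself was low and uncertain, as given above. Rps6kb1, the kinase that phosphorylates Rps6, averaged 28.3 ± 0.713 FPKM in HS_AOSFMT and 24.8 ± 1.06 FPKM in HS, and 26.0 ± 2.89 FPKM in AOS and 23.6 ± 4.32 FPKM in control (SD, n = 3 each). Its log2 difference was 0.19 (adjusted p = 0.246) in HS_AOSFMT vs HS, by limma. Rps6ka1, a kinase of the related Rsk family, averaged 26.1 ± 3.43 FPKM in HS_AOSFMT and 30.8 ± 1.79 FPKM in HS, and Rps6ka3 averaged 20.5 ± 1.38 FPKM in HS_AOSFMT and 15.4 ± 2.04 FPKM in HS. Of the cell division genes, 8 of 8 had a negative log2 value in HS_AOSFMT vs HS, with a median of -0.44 and 0 called by limma, while 78 of 83 ribosomal protein genes were positive. Fau, a ribosomal protein gene outside the rule, differed by 0.22 (adjusted p = 0.188) in the same comparison.

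AOS 3 was the highest of the 18 libraries for 26 of the 83 tested members, followed by HS_AOSFMT 3 for 15 and HS_AOSFMT 2 for 12. Over all 12967 genes these were the highest for 872, 1374 and 886. HS_AOS 3 was the lowest for 29 members, control 3 for 17, HS_conFMT 1 for 13 and control 1 for 4, and over all genes for 890, 760, 1242 and 3698 in the same order. Haemoglobin shares were 33.1% in HS_AOS 3, 21.5% in control 3, 35.5% in HS_conFMT 1 and 34.3% in control 1.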
